A study of Mus musculus with 18 samples.

Results

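The Wnt pathway genes described here were 57 mouse genes, of the 27179 genes in the count files, and all 57 were found by their Entrez identifiers. They comprised 19 Wnt ligands, 12 receptors, 10 secreted inhibitors, 5 R-spondins or R-spondin receptors, 7 intracellular modulators and 4 TCF/LEF factors. RNA-seq read counts came from 18 libraries of mouse embryonic stem cell (ESC) cultures, 3 in each of 6 groups, with each library from an independent differentiation. All cultures were differentiated with retinoic acid and a Hedgehog agonist toward spinal motor neurons (MNs). Day 2 progenitors came from a line labeled iCre and received no doxycycline (Dox). Control neurons were collected on day 4 from the iHoxc6 line without Dox. The iHoxc6, iHoxc8, iHoxc9 and iHoxc10 groups were given 3 µg/ml Dox for the last 48 h before harvest on day 4. Dox switches on a single-copy, Flag-tagged Hox transgene at the Hprt locus of the respective line. Each of these lines carries its own transgene, so that iHoxc8, iHoxc9 and iHoxc10 differ from control in the line as well as in Dox. The culture holds interneurons as well as MNs.

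Wnt ligands are secreted proteins that bind Frizzled (Fzd) receptors together with the coreceptors Lrp5 and Lrp6. In the canonical branch this stabilizes β-catenin, which acts on target genes through TCF/LEF factors, while other branches act through cell polarity and calcium signals. Secreted Dkk and Sfrp proteins restrain the pathway, and R-spondins raise the number of receptors at the cell surface by way of Lgr4, Lgr5 and Lgr6. In the developing spinal cord, Wnt ligands from the roof plate support progenitor growth and dorsal identity, and Wnt ligands also guide axons.

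Levels are given as normalized counts, abbreviated CPM, which are scaled to library size and by TMM factors so that libraries of different depth and composition can be compared. A gene was said to pass at an adjusted p under 0.01 in edgeR's quasi-likelihood test, and to pass both thresholds when the log2 fold change also lay beyond 2 in either direction. Of the 57 genes, 55 were tested. Wnt2 and Wnt8a were left out because no iHox library held a count of them, and only Day 2 libraries did. A mean of at least 1 CPM was reached by 39 genes in at least 1 group, and 5 genes had 3 counts or fewer in every library. Across 6 comparisons, 36 of 55 genes passed in at least 1, beside 50.9% of all tested genes, and 19 passed both thresholds in at least 1, beside 15% of all tested genes. In bulk RNA, fewer cells of a type and less RNA per cell cannot be told apart.

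Total counts ranged from 24498630 to 33168533 per library, so that 3 counts corresponded to between 0.0904 and 0.122 CPM, a limit that covers counting error only. Each induced gene was highest in the line labeled for it, for example Hoxc9 at 213 to 236 CPM in iHoxc9 and at no more than 0.133 CPM elsewhere, and Hoxc10 at 425 to 433 CPM in iHoxc10 and at no more than 0.353 CPM elsewhere. Hoxc6 was less confined, at 500 to 532 CPM in iHoxc6 and at 0.1685 to 49.4 CPM in the other libraries. The study reports that Hoxc10 induction raised some Hoxc6. The libraries were sequenced in 4 runs, and only control with iHoxc6 and iHoxc9 with iHoxc10 shared a run. For iHoxc8, iHoxc9 and iHoxc10 against control, and for control against Day 2, the run and the group cannot be told apart. Control replicate 2 stood apart from the other control libraries. It held 116 CPM of Olig2, a progenitor factor of MNs, against 45.5 and 58.1 CPM, and its ventral progenitor markers summed to 621 CPM, the highest of the control range that began at 288 CPM. Day 2 replicate 3 had the highest level of several Wnt pathway genes in its group. Calls that either library ends or adds are given in each comparison. Markers of the roof plate and dorsal progenitors, the tissue that makes Wnt1 and Wnt3a in the embryo, summed to between 0.235 and 1.49 CPM over all 18 libraries.

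In control neurons, Wnt7a was the most abundant ligand, whether measured as CPM or as CPM per kilobase of exon (CPM/kb), which allows genes of different length to be compared. It reached 7.57 ± 1.72 CPM/kb (SD, n = 3), followed by Wnt5b at 4.33 ± 0.479 CPM/kb and Wnt4 at 2.76 ± 0.353 CPM/kb. The Wnt7a level was 19.9, 30.2 and 22.0 CPM in the 3 control libraries, and between 13.2 and 13.8 CPM in iHoxc9. Wnt1, Wnt3a, Wnt6, Wnt8b, Wnt9b, Wnt10a, Wnt10b and Wnt16, by contrast, did not exceed 0.347 CPM in any control library.

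Among the receptors, Fzd2, Fzd7 and Fzd3 were highest per kilobase in control at 12.9 ± 2.74, 10.4 ± 3.33 and 9.99 ± 1.87 CPM/kb, and did not differ beyond their spread. Fzd2 stood at 40.8, 58.8 and 42.3 CPM in control and at 61.6, 64.7 and 90.7 CPM in Day 2. Unscaled for length, Fzd3, which is known for its part in axon guidance, was the most abundant at 128 ± 23.9 CPM. The Wnt-binding inhibitor Sfrp2 led its class at 20.3 ± 10.9 CPM/kb, ahead of Sfrp1 at 11.7 ± 4.47 CPM/kb, a difference within the spread of the libraries. The Sfrp2 level was 30.0, 70.7 and 30.4 CPM in control, the high value being that of replicate 2. Lgr4 was the only R-spondin receptor or R-spondin above 1 CPM in control, at 32.4, 47.9 and 30.1 CPM. Axin1, a scaffold of the β-catenin destruction complex, reached 78.0, 87.3 and 88.8 CPM, and the repressor Tcf7l1 17.6, 38.4 and 13.4 CPM. Among the control libraries, Sfrp2, Lgr4 and Tcf7l1 were thus each highest in replicate 2.

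**Figure D1:**
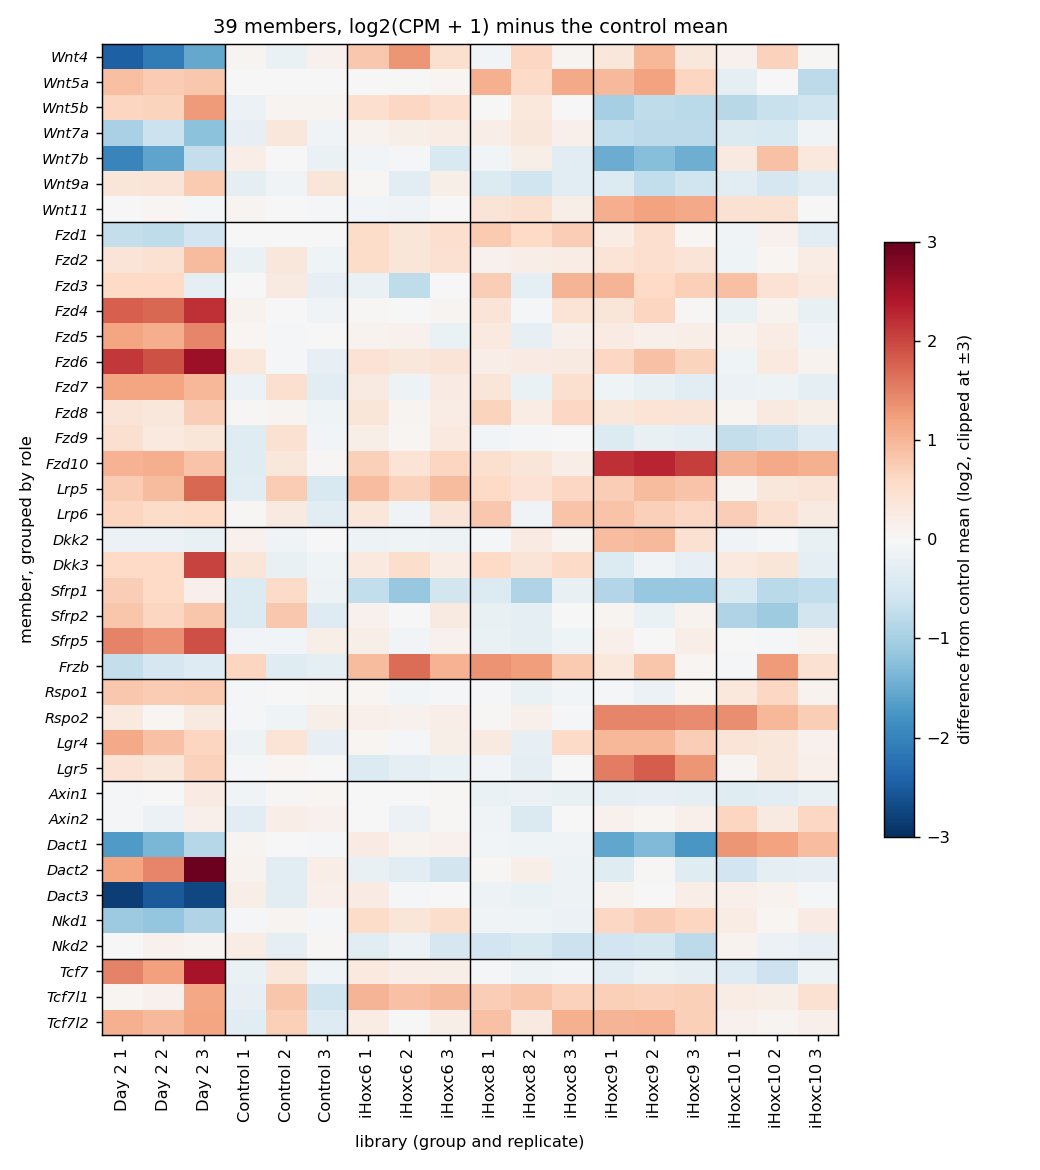
Heat map of the 39 genes with a mean of at least 1 CPM in a group (rows, ordered by role) over the 18 libraries (columns). Color is log2(CPM + 1) minus the mean of the 3 control libraries, clipped at 3 in either direction. The Day 2 columns stand apart in most roles, and the iHoxc9 columns lie above all other columns for Wnt11, Fzd10 and Lgr5.

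All 4 induced lines were compared with the same 3 control libraries. Control and iHoxc6 neurons came from the same line and the same run, and their comparison asks what induction of Hoxc6 with Dox changes. No library had Dox without an induced Hox gene, so Dox and Hoxc6 cannot be told apart. No Wnt pathway gene passed, higher or lower, against 0.363% of all 20944 tested genes that rose and 0.224% that fell, and 0 passed both thresholds against 0.115%. At an unadjusted p under 0.05 there were 18 of 55 genes, beside 21.2% of all genes. DESeq2's Wald test passed 2, the inhibitor Sfrp1 and the Dishevelled antagonist Nkd1, beside 3.84% of the genes to which it gave an adjusted p. The Nkd1 level was 28.1, 24.8 and 27.7 CPM in iHoxc6 and 18.4, 20.1 and 18.4 CPM in control, with no overlap, and its log2 difference was 0.50 ± 0.122 (SE, adjusted p = 0.0309 by edgeR). The Sfrp1 level was 28.6, 21.8 and 33.0 CPM in iHoxc6 and 36.4, 73.2 and 43.5 CPM in control, a log2 difference of -0.88 ± 0.226 (adjusted p = 0.0388). Without control replicate 2, 4 genes passed, all higher in iHoxc6. They were the coreceptor Lrp5 (log2 fold change of 1.28), Tcf7l1 (1.43), Fzd2 (0.63) and Fzd10 (0.86). The median log2 fold change of the 55 genes was 0.09, beside 0 for all genes.

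In iHoxc8 neurons, 2 genes passed, both higher than in control, beside 1.03% of all genes that rose. None of the 55 fell, beside 1.09% of all genes, and 0 of 55 passed both thresholds, beside 0.22%. At an unadjusted p under 0.05 there were 16 genes, beside 23.2% of all genes. DESeq2 passed 4, these 2 and the receptor Fzd8 and Nkd2, beside 9.25% of the genes to which it gave an adjusted p. Wnt5a, the principal ligand of the polarity branch, stood at 14.2, 9.85 and 15.1 CPM in iHoxc8 and at 6.20, 6.32 and 6.36 CPM in control. Every iHoxc8 library thus exceeded every control library, and the log2 fold change was 1.05 ± 0.202 (SE, adjusted p = 0.00377). The Wnt5a exons overlap the antisense gene Gm2670, and the strand setting of the counting is not given in the sources used here, so reads of the pair could not be separated. The same holds for the exons of Fzd5, Fzd6, Sfrp2, Rspo3 and Tcf7l1, which overlap antisense genes too. The receptor Fzd1 stood at 31.5, 27.6 and 30.3 CPM in iHoxc8 and at 17.6, 18.1 and 17.8 CPM in control, without overlap, with a log2 fold change of 0.74 ± 0.143 (adjusted p = 0.00385). Both calls were lost without control replicate 1 (adjusted p = 0.0133 for Wnt5a and 0.0134 for Fzd1) or 3 (0.0269 and 0.0291), and without iHoxc8 replicate 1 (0.0261 and 0.0286) or 3 (0.0345 and 0.0306). Without control replicate 2 there were 6 calls, with Lrp5, Tcf7l1, Tcf7l2 and Nkd2 added. Without iHoxc8 replicate 2, Fzd8 and the coreceptor Lrp6 were added, and without control replicate 1, Frzb. MN markers summed to between 412 and 445 CPM in iHoxc8 and to between 378 and 430 CPM in iHoxc6, against 495 to 525 CPM in control, and 3 floor plate markers to between 531 and 599 CPM and between 543 and 754 CPM, against 353 to 457 CPM. Of the 6 MN markers, 1 passed in iHoxc8, lower, beside 1.09% of all genes, and 0 passed in iHoxc6, beside 0.224% lower. Of the 3 floor plate markers, 0 passed in either line. The sums themselves were not tested, nor was their part in the values of either line.

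Hoxc9, a thoracic gene of the Abd-B class, gave the most calls of the induced lines. In iHoxc9 neurons 10 of 55 genes passed higher and 7 passed lower than control, where 6.95% of all genes rose and 7.13% fell. Both thresholds were passed by 5 genes, all higher, beside 2.7% of all genes in either direction. These were the ligand Wnt11, the receptor Fzd10, the inhibitor Dkk2, the R-spondin Rspo2 and the R-spondin receptor Lgr5. The median log2 fold change was 0.29 over the 55 genes and 0.001 over all genes. Without control replicate 2, Lrp5 (log2 fold change of 1.28), Lrp6 (0.88), Tcf7l1 (1.17) and Fzd2 (0.61) passed as well, all higher in iHoxc9. Wnt3a had no count in iHoxc9 and stood at 0.193, 0.347 and 0.112 CPM in control, and did not pass (adjusted p = 0.0117). It passed both thresholds, lower, by DESeq2's Wald test (adjusted p = 0.00617) and in a fit of only iHoxc9 and control (0.0095). These values rest on few counts.

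Rspo2 (chr15:43020788-43171594, minus strand, RefSeq on GRCm38.p6) encodes a secreted enhancer of Wnt signaling. Its level was 2.27, 2.27 and 2.15 CPM in iHoxc9, and 0.129, 0.077 and 0.337 CPM in control. In iHoxc10 it was 2.10, 1.36 and 0.972 CPM. Every library of iHoxc9 and iHoxc10 lay above every library of the other 4 groups, in which the highest was 0.438 CPM, in Day 2. The log2 fold change against control was 3.60 ± 0.406 in iHoxc9 (SE, adjusted p = 8.46e-07) and 3.02 ± 0.416 in iHoxc10 (adjusted p = 2.12e-05). Both rest on control levels of a few counts, and without control replicate 3 they were 4.33 and 3.79.

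Lgr5 (chr10:115450314-115587780, minus strand), an R-spondin receptor and itself a target of Wnt signaling in many tissues, stood at 3.36, 4.36 and 2.79 CPM in iHoxc9. In control it was 0.450, 0.578 and 0.524 CPM, and in iHoxc10 0.595, 0.931 and 0.689 CPM. All 3 iHoxc9 libraries exceeded the 15 others, and the log2 fold change against control was 2.76 ± 0.307 (adjusted p = 7.29e-07). Its relative Lgr4 was higher by 0.91 ± 0.193 on the log2 scale (adjusted p = 0.00145), at 72.6, 73.2 and 61.2 CPM, a call that was lost without control replicate 1 (adjusted p = 0.0113) or 3 (0.0196). With Rspo2, these made 3 of the 5 genes of the R-spondin class that rose in iHoxc9, beside 6.95% of all genes.

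Fzd10 (chr5:128601106-128604093, plus strand), which in the embryo marks the dorsal neural tube, was at 30.4, 32.6 and 28.0 CPM in iHoxc9. It was at 4.34, 7.74 and 6.03 CPM in control, 12.9, 14.2 and 13.3 CPM in iHoxc10, and 13.2, 13.6 and 11.6 CPM in Day 2. The iHoxc9 libraries were above all others, and the iHoxc10 libraries were above all of control, iHoxc6 and iHoxc8. The log2 fold change against control was 2.33 ± 0.176 in iHoxc9 (adjusted p = 2.28e-09) and 1.17 ± 0.174 in iHoxc10 (adjusted p = 5.00e-05). A second receptor, Fzd6, passed in iHoxc9 with a log2 fold change of 1.06 ± 0.256 (adjusted p = 0.00411), and this call was lost without control replicate 2 (0.0119) or 3 (0.0444) and without iHoxc9 replicate 2 (0.0261) or 3 (0.0147).

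Among the ligands, Wnt11 (chr7:98835084-98854747, plus strand), which acts mostly outside the β-catenin branch, rose from 0.321, 0.231 and 0.187 CPM in control to 1.64, 1.85 and 1.75 CPM in iHoxc9. All 3 iHoxc9 libraries were higher than the 15 others, with a log2 fold change of 2.79 ± 0.37 against control (adjusted p = 7.90e-06). Its exons overlap the antisense gene Gm8398. Wnt5a was higher too, at 13.3, 15.9 and 10.4 CPM (log2 fold change of 1.07 ± 0.203, adjusted p = 0.000501). The inhibitor Dkk2 (chr3:132085266-132180304, plus strand), which binds Lrp5 and Lrp6, stood at 1.21, 1.27 and 0.597 CPM in iHoxc9 and at 0.257, 0.077 and 0.1497 CPM in control, without overlap (log2 fold change of 2.61 ± 0.514, adjusted p = 0.000748).

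Of the 17 ligands tested, 4 fell in iHoxc9, beside 7.13% of all genes. Wnt7b (chr15:85535437-85581821, minus strand), a canonical ligand that also promotes dendrite growth, stood at 2.78, 3.35 and 2.79 CPM against 10.99, 9.66 and 8.08 CPM in control, without overlap (log2 fold change of -1.68 ± 0.294, adjusted p = 0.000229). Its exons overlap the antisense transcript AU022754. Wnt7a fell by 0.84 on the log2 scale (SE 0.17, adjusted p = 0.000985) and Wnt5b by 0.96 (SE 0.176, adjusted p = 0.000367). Wnt9a fell by 1.24 (SE 0.334, adjusted p = 0.0092), at 0.822, 0.471 and 0.597 CPM against 1.03, 1.27 and 2.13 CPM, and was not called without control replicate 3 (adjusted p = 0.0873) or without iHoxc9 replicate 1 (0.0112), 2 (0.06) or 3 (0.0266).

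Of the intracellular modulators, Dact1 (chr12:71309884-71320107, plus strand), a scaffold that binds Dishevelled and can restrain or aid Wnt signaling, stood at 13.7, 16.1 and 11.9 CPM in iHoxc9 and 44.5, 41.4 and 40.4 CPM in control. In iHoxc10 it was 106, 99.0 and 80.2 CPM. The groups did not overlap in either comparison. Dact1 fell by 1.60 on the log2 scale in iHoxc9 (SE 0.175, adjusted p = 5.92e-07) and rose by 1.18 in iHoxc10 (SE 0.17, adjusted p = 3.53e-05). Its exons overlap the antisense transcript 4930474H06Rik.

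Nkd1, which is induced by Wnt signaling in many tissues and feeds back on Dishevelled, was higher in iHoxc9 by 0.70 ± 0.123 on the log2 scale (adjusted p = 0.000235), at 29.9, 32.5 and 29.9 CPM. Its paralog Nkd2 was lower by 0.87 on that scale (adjusted p = 0.00401), a call that was lost without control replicate 1 (0.0297) or 3 (0.0133) and without iHoxc9 replicate 1 (0.0143) or 3 (0.0205). The inhibitor Sfrp1 fell by 1.14 (SE 0.228, adjusted p = 0.00087), and by 0.79 without control replicate 2 (adjusted p = 0.00553). Tcf7l2, a nuclear partner of β-catenin, had a log2 fold change of 0.94 ± 0.257 (adjusted p = 0.00964), but its groups overlapped, control replicate 2 holding 9.78 CPM against 12.2, 12.6 and 9.71 CPM in iHoxc9. That call was lost without any of the libraries of the comparison other than control replicate 2, with adjusted p from 0.0129 to 0.0939, and stood at 1.48 without control replicate 2. It was also lost when genes needed at least 10 counts in 3 libraries (adjusted p = 0.0123) or at least 1 count in any library (0.0104). The widely used reporter of canonical signaling, Axin2, was at 21.0, 19.8 and 21.4 CPM in iHoxc9 and 15, 22.0 and 21.0 CPM in control, with a log2 difference of 0.10 ± 0.162 (adjusted p = 0.708).

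**Figure D2:**
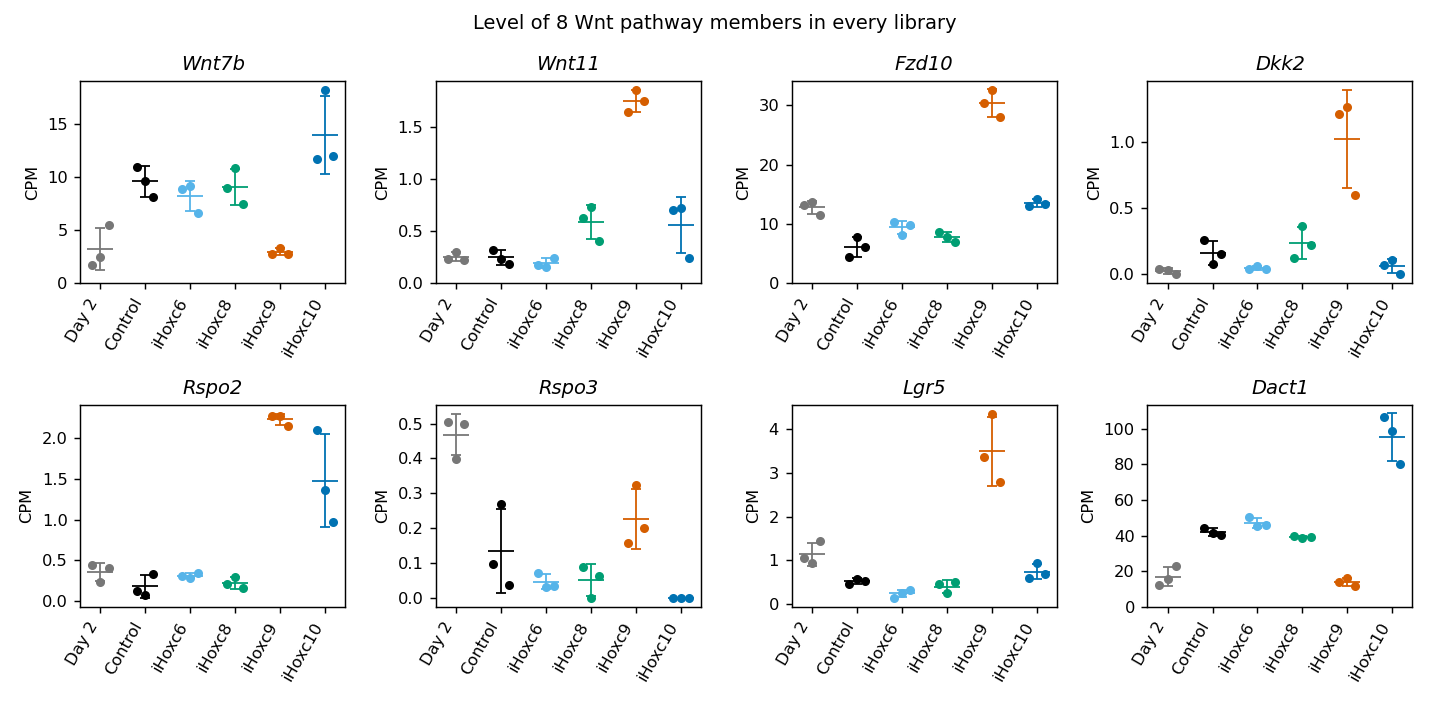
Level in CPM (linear axes) of the 8 genes that passed both thresholds between day 4 groups, in each library, with the mean and SD of each group as bars. The iHoxc9 points lie above all other points for Wnt11, Fzd10, Dkk2 and Lgr5, and the iHoxc10 points lie above all others for Dact1.

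Cell type markers moved with these genes. In iHoxc9, 4 of 6 MN markers fell, beside 7.13% of all genes, and their sum ranged from 256 to 275 CPM, against 495 to 525 CPM in control. The 4 interneuron markers reported here summed to between 16.3 and 21.1 CPM against 1.62 to 2.25 CPM, and 1 of them passed, higher. This was Sim1, a marker of V3 interneurons, at 19.6, 16.4 and 15.2 CPM against 0.739, 0.308 and 0.337 CPM in control. Sim1 thus held most of the interneuron sum in iHoxc9, and none of the other markers in it passed. Of the 3 floor plate markers reported here, which summed to between 235 and 353 CPM, 1 passed, lower. This was Shh, which the floor plate secretes, at 3.87, 8.36 and 3.15 CPM against 31.4, 24.0 and 26.1 CPM. In iHoxc10, MN markers summed to between 480 and 538 CPM. The interneuron markers summed there to between 4.78 and 8.89 CPM, of which Sim1 held 4.87, 7.63 and 3.44 CPM. Fibroblast markers, of which 3 of 5 were lower in iHoxc10 past both thresholds, summed there to between 0.700 and 1.26 CPM, against 4.34 to 8.16 CPM in control. Endoderm markers summed to between 43.1 and 52.9 CPM in iHoxc10 and between 27.4 and 29.0 CPM in iHoxc9, against 88.5 to 102 CPM in control. Of the 4 endoderm markers tested, 1 was lower in iHoxc10, while in iHoxc9 2 were lower and 1 higher. In Day 2 the sum was lower than in control, between 36.0 and 46.2 CPM, although 3 of the 4 fell from Day 2 to control and 1 rose. The endoderm sum thus did not follow most of its list. The part of these shifts in the Wnt pathway values was not tested.

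Promoter sequences are shown for Wnt11 and Dkk2, which rose in iHoxc9, and for Dact1, which fell there and rose in iHoxc10. RefSeq promoter windows on GRCm38.p6 were listed for 39 of the 57 genes and for 4 of the 8 that passed both thresholds between day 4 groups. Fzd10 is not shown because its window lies in an exon of the GENCODE annotation, and Wnt7b, Rspo2, Rspo3 and Lgr5 were not among the entries. The letters TTTAT, the core that posterior Hox factors prefer, and CTTTG, the core of TCF/LEF sites, were searched on both strands of the 250 bases before the start site. Of 32851 promoter windows of that length, 37.3% held the first and 48.6% held the second. Printed are 220 of these bases, 5′ to 3′ on the plus strand, which end 30 bases before the listed start site, at chr7:98834862-98835081 for the upstream start of Wnt11, chr3:132085042-132085261 for Dkk2 and chr12:71309634-71309853 for Dact1. Capitals mark matches to CTTTG or its reverse complement CAAAG.
Wnt11: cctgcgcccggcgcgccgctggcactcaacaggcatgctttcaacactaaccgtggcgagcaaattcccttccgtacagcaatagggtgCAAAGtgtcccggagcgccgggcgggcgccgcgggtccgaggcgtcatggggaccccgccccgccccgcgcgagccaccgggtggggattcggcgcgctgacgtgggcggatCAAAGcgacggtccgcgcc
Dkk2: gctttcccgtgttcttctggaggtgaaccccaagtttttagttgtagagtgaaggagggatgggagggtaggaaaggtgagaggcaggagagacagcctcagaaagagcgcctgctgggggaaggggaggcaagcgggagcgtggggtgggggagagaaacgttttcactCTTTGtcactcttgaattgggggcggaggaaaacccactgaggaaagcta
Dact1: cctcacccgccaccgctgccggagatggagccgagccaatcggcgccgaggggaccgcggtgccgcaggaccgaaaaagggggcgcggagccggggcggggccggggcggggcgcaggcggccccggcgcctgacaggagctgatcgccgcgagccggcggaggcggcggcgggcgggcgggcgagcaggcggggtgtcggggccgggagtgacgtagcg
The TCF/LEF core occurred 2 times before Wnt11, at 161 and 49 bases from the start, and 1 time before Dkk2, at 80 bases. The posterior Hox core occurred 1 time in each, as its reverse complement ATAAA, at 28 and 31 bases from the start. The Dkk2 match begins at the last printed base and the Wnt11 match lies wholly in the stretch left out of the print, where TATA boxes also lie. The listed starts of Wnt11 and Dkk2 lie 28 and 26 bases inside the genes as RefSeq gives them above, so that the Wnt11 match begins at the first base of the gene. Neither core occurred before Dact1. A match in these letters is not a measured site.

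In iHoxc10 neurons, 3 of 55 genes passed higher and 3 lower than control, where 6.67% of all genes rose and 7.75% fell, and 1 gene passed both thresholds beside 1.48%. The genes that rose were Rspo2, Fzd10 and Dact1, given above. Wnt5b fell, at 5.95, 6.81 and 7.17 CPM against 10.02, 12.2 and 12.2 CPM (log2 fold change of -0.79 ± 0.176, adjusted p = 0.00206), and was not called without control replicate 3 (0.0133) or iHoxc10 replicate 1 (0.0177). The receptor Fzd9 and the inhibitor Sfrp2 fell as well, by 0.67 (adjusted p = 0.00858) and 0.98 (adjusted p = 0.0035) on the log2 scale. Without control replicate 2, the log2 differences of Fzd9 and Sfrp2 were -0.39 (adjusted p = 0.0751) and -0.45 (adjusted p = 0.0366). Leaving out control replicate 3 or any iHoxc10 library also ended the Fzd9 call (0.0115 to 0.0519), as did leaving out iHoxc10 replicate 1 (0.0204) or 2 (0.0203) for Sfrp2. Axin2 stood at 30.2, 23.2 and 29.7 CPM, above all control libraries, with a log2 difference of 0.52 ± 0.161 that did not pass (adjusted p = 0.0209). Axin2 did pass without control replicate 2 (log2 fold change of 0.63, adjusted p = 0.00978) and by DESeq2's Wald test (0.54, adjusted p = 0.00553). Its exons overlap an antisense gene. The median log2 fold change was 0.05, beside 0 for all genes.

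**Figure D3:**
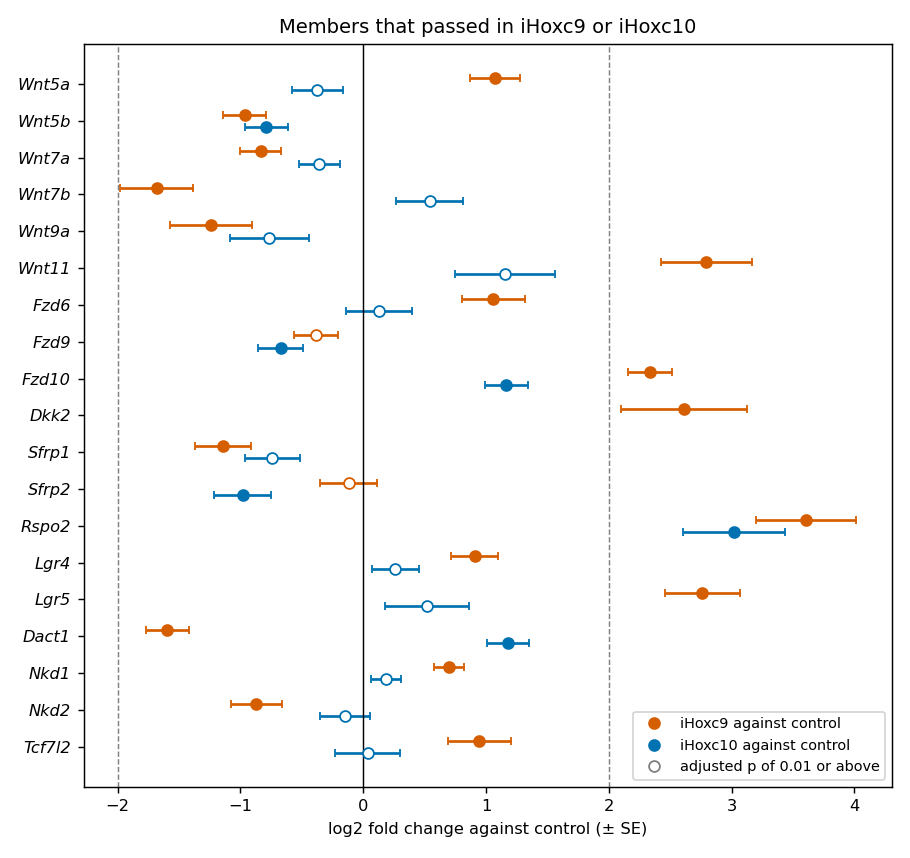
Log2 fold change against control with SE (x axis) of the 19 genes that passed in iHoxc9 or iHoxc10 (y axis), with iHoxc9 in orange and iHoxc10 in blue, open points for an adjusted p of 0.01 or above, and dashed lines at 2 in either direction. Both comparisons share the control libraries. No iHoxc10 point is drawn for Dkk2, whose iHoxc10 libraries held 3 counts or fewer each. Rspo2 and Fzd10 are to the right of 0 in both lines, and Dact1 is to the left in iHoxc9 and to the right in iHoxc10.

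HOXC9 and HOXC10 are both of the Abd-B class and specify thoracic and lumbar levels, and their neurons were sequenced in the same run, so the comparison between them asks how 2 related factors differ. The lines differ as well, and the induced genes stood at 213 to 236 CPM (Hoxc9) and 425 to 433 CPM (Hoxc10), unscaled for length. Factor, line and level of the induced gene cannot be told apart here. Of 55 genes, 7 passed higher and 2 lower in iHoxc9 than in iHoxc10, where 2.6% of all genes were higher and 2.4% lower, and 5 passed both thresholds beside 1.31%. Libraries of these 2 groups with the same replicate number deviated together from their group means. In a fit of only the 2 groups with the replicate number as a block, chosen after the data were seen, 20 genes passed higher and 8 lower, beside 14% and 13.7% of all genes. Among the 19 genes this added were the inhibitor Sfrp2 (log2 fold change of 0.84), Lgr4 (0.61), Tcf7l2 (0.88) and Lrp5 (0.56), all higher in iHoxc9. The added genes that were lower there were Axin2 (-0.45), Wnt7a (-0.50), Sfrp1 (-0.43), Dkk3 (-0.54), Nkd2 (-0.75) and Rspo1 (-1.93). Without the block, the fit of only the 2 groups also called Axin2 (-0.46, adjusted p = 0.00753) and Wnt7a (-0.51, adjusted p = 0.00496) lower in iHoxc9. The blocked fit of so few libraries leaves little from which to estimate the spread. In the fit of all libraries, the same block gave fewer calls than the fit without it. Dact1 had the smallest adjusted p, with 11.9 to 16.1 CPM in iHoxc9 and 80.2 to 106 CPM in iHoxc10 (log2 fold change of -2.77 ± 0.181, adjusted p = 5.27e-10). Wnt7b stood at 11.7, 18.2 and 12.0 CPM in iHoxc10, above all libraries of iHoxc9 (log2 fold change of -2.22 ± 0.295, adjusted p = 1.71e-05). These were the 2 genes lower in iHoxc9.

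Lgr5 was higher in iHoxc9 than in iHoxc10 by 2.24 ± 0.295 (log2, adjusted p = 1.46e-05). Dkk2, at 0.07, 0.107 and 0 CPM in iHoxc10, was at least 9.21-fold higher in iHoxc9, taking 3 counts in each iHoxc10 library as the floor (adjusted p = 0.000103). The R-spondin Rspo3 was at 0.157, 0.324 and 0.199 CPM in iHoxc9 and had no count in iHoxc10, which gives a difference of at least 2.03-fold (adjusted p = 0.00421). The Rspo3 call rests on few counts. It was lost with the replicate number as a block (adjusted p = 0.0102), without iHoxc9 replicate 2 (0.0257) and without any of the iHoxc10 libraries (0.0184 to 0.0211).

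Wnt5a, Wnt11 and Fzd10 passed without reaching a log2 fold change of 2. Wnt5a stood at 5.08, 6.20 and 3.24 CPM in iHoxc10, below all iHoxc9 libraries (log2 fold change of 1.45 ± 0.206, adjusted p = 4.21e-05). Wnt11 was at 0.700, 0.717 and 0.243 CPM in iHoxc10, also below all of iHoxc9 (1.64 ± 0.332, adjusted p = 0.002), and was not called without iHoxc9 replicate 2 (0.0118) or iHoxc10 replicate 3 (0.0193). Fzd10 differed by 1.17 ± 0.168 (adjusted p = 4.47e-05). For Nkd1 the log2 difference was 0.51 ± 0.122 (adjusted p = 0.00827), and this call was lost with the replicate block (adjusted p = 0.0113) and without each of the 6 libraries in turn (0.0271 to 0.0977).

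Control neurons and Day 2 progenitors were compared to follow the pathway through differentiation. The 2 groups also came from different lines and runs, so that day, line and run cannot be told apart here. Of 55 genes, 7 passed higher and 20 lower in control, where 21.2% of all genes rose and 21.2% fell, and 11 passed both thresholds beside 12.6%. The median log2 fold change was -0.89 over the 55 genes and 0 over all genes. Receptors accounted for 8 of the 20 that fell, with 1 of 12 higher, while 3 of the 7 intracellular modulators rose. Neuron markers summed to between 272 and 546 CPM in Day 2 and to between 4821 and 5304 CPM in control, and pluripotency markers to between 7.32 and 11.9 CPM and between 0.835 and 1.23 CPM. The part of these changes in cell makeup was not tested. Without control replicate 2, 7 more genes passed. Dkk2 was higher in control, and Fzd9 (-0.66), Lrp6 (-0.73), Sfrp1 (-0.81), Sfrp2 (-1.20), Tcf7l1 (-0.99) and Rspo3 were lower.

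The Frizzled receptors Fzd4, Fzd5 and Fzd6 fell past both thresholds. Fzd6, a receptor of the polarity branch, was at 8.93, 7.59 and 12.6 CPM in Day 2 and at 1.83, 1.19 and 0.936 CPM in control (log2 fold change of -2.86 ± 0.252, adjusted p = 2.13e-09). Fzd4 went from 9.16, 8.62 and 12.3 CPM to 2.18, 1.93 and 1.72 CPM (-2.36 ± 0.237), and Fzd5 from 2.86, 2.63 and 3.69 CPM to 0.771, 0.655 and 0.674 CPM (-2.12 ± 0.302). For each of these genes, all 15 day 4 libraries lay below all 3 of Day 2. Smaller declines passed for Fzd7 (-1.10), Fzd10 (-1.09), Lrp5 (-1.14), Fzd2 (-0.61) and Fzd8 (-0.54), and Fzd1 rose by 0.73 on the log2 scale. Fzd2 and Fzd8 were not called without control replicate 1 (adjusted p = 0.0184 and 0.0144) or 3 (0.012 and 0.0236) or Day 2 replicate 3 (0.0194 and 0.0332). In a fit of only these 2 groups, Lrp5 (adjusted p = 0.0263), Fzd2 (0.0523) and Fzd8 (0.0691) were not called.

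Of the 17 ligands tested, 3 rose and 4 fell, beside 21.2% of all genes in each direction. Wnt4, known for its part in kidney and gonad development, rose from 1.28, 1.93 and 3.28 CPM in Day 2 to 12.2, 9.86 and 12.6 CPM in control (log2 fold change of 2.41 ± 0.312, adjusted p = 8.01e-07). Wnt7a and Wnt7b rose by 1.01 and 1.57, the latter by 2.19 without Day 2 replicate 3. Wnt1, the roof plate and midbrain ligand, fell from 0.674, 0.499 and 1.31 CPM to 3 counts or fewer per control library, at least 7.67-fold (adjusted p = 4.30e-06), and Wnt10b fell at least 3.84-fold (adjusted p = 0.000255). Wnt5a and Wnt5b fell by 0.92 and 0.95.

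Of the secreted inhibitors, Sfrp5 fell from 2.42, 2.16 and 3.72 CPM to 0.161, 0.154 and 0.374 CPM (log2 fold change of -3.58 ± 0.429, adjusted p = 2.50e-07). Dkk3 fell by 1.39, and its call was lost without Day 2 replicate 3, which held 20.4 CPM against 6.97 and 7.02 CPM (log2 difference of -0.68, adjusted p = 0.0134). In the R-spondin class, Rspo1 fell from 1.08, 1.03 and 1.06 CPM to 0.161, 0.193 and 0.225 CPM (-2.44 ± 0.447, adjusted p = 7.46e-05). Lgr4 and Lgr5 fell by 0.89 and 1.14, and the Lgr5 call was lost without control replicate 1 (0.0249) or 3 (0.0134) or Day 2 replicate 3 (0.0244). In a fit of only these 2 groups, Dkk3 (adjusted p = 0.0214) and Lgr5 (0.0330) were not called.

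The intracellular modulators of the Dact family moved apart. Dact3, which binds Dishevelled, rose from 4.88, 6.36 and 5.34 CPM in Day 2 to 46.8, 32.3 and 45.5 CPM in control, the largest rise of the 55 genes (log2 fold change of 2.91 ± 0.158, adjusted p = 6.37e-13). It was between 35.6 and 49.2 CPM in the 12 induced libraries, which overlapped control. Dact1 rose by 1.32 and Nkd1 by 1.13. Dact2 was at 8.69, 10.8 and 31.7 CPM in Day 2 and at 3.60, 2.46 and 3.93 CPM in control, and fell by 2.35, or by 1.54 without Day 2 replicate 3. Its exons overlap an antisense gene. The TCF/LEF factor Tcf7 fell from 11.4, 9.38 and 23.4 CPM to 2.83, 4.58 and 2.99 CPM (-2.09 ± 0.268, adjusted p = 6.99e-07), or by 1.59 without Day 2 replicate 3. Tcf7l2 fell by 1.10, a call lost without control replicate 1 (adjusted p = 0.0104) and in a fit of only these 2 groups (0.0219). Lef1 did not exceed 0.656 CPM in any library.

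**Figure D4:**
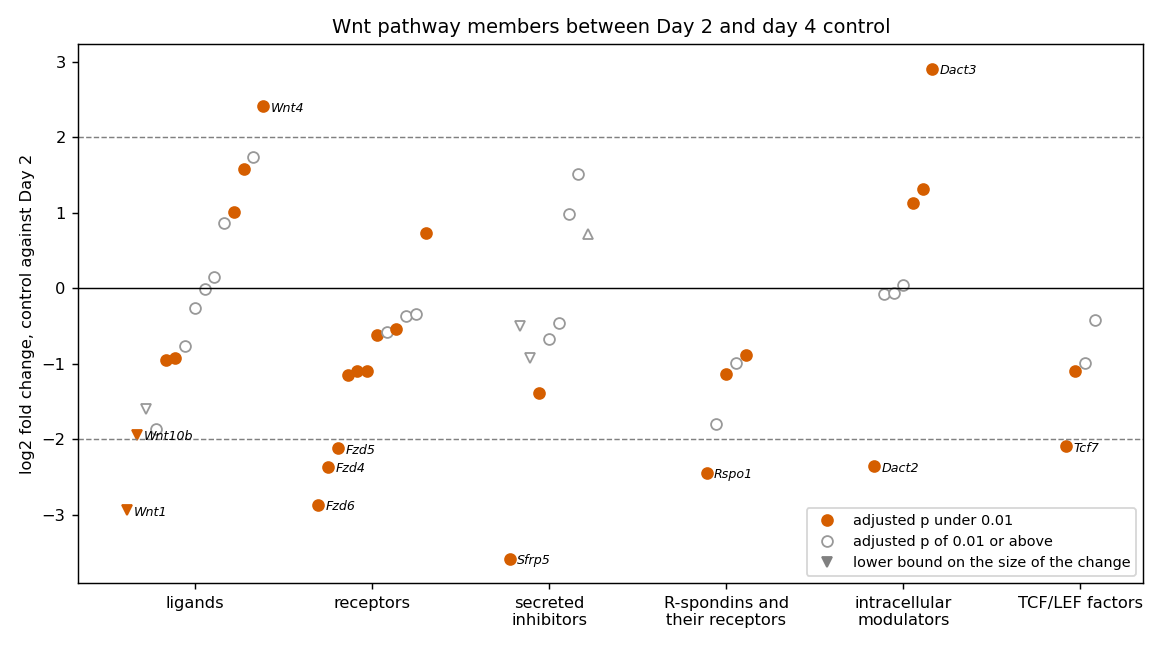
Log2 fold change of control against Day 2 (y axis) for each tested gene above the count floor in at least 1 of these groups, by role (x axis, ordered by value within a role), with filled points for an adjusted p under 0.01, triangles for lower bounds and names for genes that passed both thresholds. Of the 12 receptors, 8 filled points lie below 0 and 1 above, and Dact3 at 2.91 is the highest point.

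Over all day 4 groups, 13 genes were lower in each of the 15 day 4 libraries than in each Day 2 library, and 6 were higher in each, beside 17.7% and 19% of all tested genes. The 6 were Wnt3, Wnt4, Fzd1, Frzb, Dact3 and Nkd1, of which Frzb, a secreted Wnt antagonist, did not pass between control and Day 2 (log2 difference of 0.99, adjusted p = 0.0591) and neither did Wnt3. Among the 13 were Fzd4, Fzd5, Fzd6, Fzd7, Sfrp5, Rspo1, Dact2 and Tcf7. Fzd10 was not among them, since its iHoxc9 libraries lay above those of Day 2. Day 2 differed from every day 4 group in line and run as well as in day.

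The other genes of the pathway were counted from lists of 20 genes of secretion and the cell surface, 15 of the cytoplasmic core, 12 of planar cell polarity, 9 nuclear cofactors and 17 genes that Wnt signaling induces in many tissues, 7 of which, such as Axin2 and Lgr5, are also among the 57. Those whose log2 fold change did not reach 2 are named after their values were seen. In iHoxc9, where 6.95% of all genes rose and 7.13% fell, 2 of 19 tested cell surface genes passed higher (Ror1 and Ror2, receptors for Wnt5a) and 2 lower (Sost and Draxin, both Wnt inhibitors). Higher too were 2 of 15 core genes (Gsk3b and Ctnnd2), 3 of 12 polarity genes (Prickle1, Celsr1 and Daam2) and 3 of 9 cofactors (Bcl9, Tle1 and Tle3), with none lower in these lists. Of the 16 tested target genes, Lgr5 and Nkd1 were higher and Ccnd1 lower. The polarity gene Daam2, a formin that binds Dishevelled, stood at 23.5, 24.6 and 22.3 CPM in iHoxc9 against 3.18, 2.81 and 2.06 CPM in control (log2 fold change of 3.12 ± 0.263, adjusted p = 1.20e-08). Ror1 rose from 0, 0.231 and 0.225 CPM to 1.33, 1.68 and 1.11 CPM (3.21 ± 0.565, adjusted p = 0.000243), and by 2.58 without control replicate 1. Ror2 rose by 1.60 (adjusted p = 3.97e-07). For Daam2 and Ror1 the iHoxc9 libraries had no overlap with control.

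Ccnd1, the cyclin D1 gene and a target of Wnt signaling among other inputs, was at 0.665, 1.32 and 1.07 CPM in iHoxc9 and at 16.4, 39.2 and 22.5 CPM in control. Its libraries in the other induced lines held between 13.7 and 24.3 CPM, so that iHoxc9 stood far below each of them. The log2 fold change against control was -4.64 ± 0.289 (adjusted p = 1.17e-10), and -4.22 without control replicate 2. The Lrp inhibitor Sost fell as well (-2.10 ± 0.492, adjusted p = 0.00324). Sost was lost in 2 of 12 alternatives, with a largest adjusted p of 0.0234.

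In iHoxc10, where 6.67% of all genes rose and 7.75% fell, the passing genes of these lists were all higher. They were 1 of 19 cell surface genes (Draxin, with a log2 fold change of 1.81), 4 of 15 core genes (Gsk3b, Apc, Apc2 and Ctnnd2), 3 of 12 polarity genes (Prickle1, Prickle2 and Daam2), 1 of 9 cofactors (Bcl9l) and 1 of 16 target genes. The target gene was Sp5, a transcription factor induced by canonical signaling, at 2.42, 3.90 and 2.71 CPM in iHoxc10 against 0.642, 0.424 and 0.487 CPM in control (log2 fold change of 2.52 ± 0.483, adjusted p = 0.000576). In iHoxc9, Sp5 was at 0.235, 0.265 and 0.159 CPM, lower than in every control library. Between iHoxc9 and iHoxc10, Sp5 (-3.73), Ccnd1 (-4.02), Sost (-2.29) and the axon guidance protein and Wnt inhibitor Draxin (-2.39) were lower in iHoxc9 past both thresholds, and Ror1 was higher (2.20). The Ror1 call was lost without any of the iHoxc9 libraries or without iHoxc10 replicate 1 or 3 (adjusted p = 0.0113 to 0.0489), and the Sost call without replicate 1 or 3 of either line (0.01002 to 0.0235). Draxin stood at 94.2, 99.7 and 89.4 CPM in iHoxc10 and at no more than 28.8 CPM in any other library.

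In iHoxc6 none of the 5 lists held a passing gene, and in iHoxc8 only 1 core gene passed, Ctnnd2, with a log2 fold change of 0.72. Between Day 2 and control, 11 of 15 core genes and 7 of 9 cofactors rose, with 1 lower in each, while 6 of 16 tested target genes fell and 1 rose, beside 21.2% of all genes in each direction. Apc2, the neuronal relative of the destruction complex scaffold Apc, rose by 3.81 on the log2 scale (adjusted p = 1.40e-13), the polarity cadherin Celsr3 by 2.76 and the δ-catenin gene Ctnnd2 by 2.20. Ccnd1 fell by 2.33, the receptor Tnfrsf19 by 2.88, Ror1 by 2.51 and Lgr6 by 2.22. Ror1 was not called in a fit of only these 2 groups (adjusted p = 0.0142), and fell by 1.87 without control replicate 1. Lgr6, another R-spondin receptor, was lost in 6 of 11 alternatives.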

How the data were processed

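The authors aligned stranded mRNA reads to the mouse genome (mm10, the assembly also named GRCm38) with STAR 2.7.0c, assigned them to RefSeq genes with featureCounts, summed RefSeq genes that share an Entrez identifier, and deposited the read counts of each library without normalization. The strand setting of the counting is not given in the sources used here, and reads of overlapping antisense genes cannot be told apart. ERCC spike-ins that the study added were not used here.

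The members and all gene lists were chosen with earlier results of these data known. Libraries were grouped by their labels. Symbols and coordinates came from RefSeq (GRCm38.p6) and matched 25275 of 27179 identifiers. Exon lengths, strand and overlaps came from GENCODE. No column was left unused (0 columns). Some results for cell type markers are not reported here.

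Differences were tested in R 4.3.3 with edgeR 4.0.16 (TMM factors, quasi-likelihood F test, all 18 libraries fitted jointly by group) on 20944 genes, which had a count of 1 or more in some iHox library, with Benjamini-Hochberg adjustment over all of them. The SE was taken from the F statistic. Where no library of a group exceeded 3 counts, folds were taken against 3 counts per library and are lower bounds. Thresholds were those of the study's methods. With 3 libraries against 3, an exact permutation test cannot give a p under 0.1, and was not used. The code was tested on simulated data. Alternatives were DESeq2 1.42.0 (Wald test, and its size factors within edgeR), at least 10 counts in 3 libraries, at least 1 count in any library, fits restricted to the groups in question, a block for the replicate number, and the omission of single libraries. Levels were also ranked per kilobase, with DESeq2's size factors and with a pseudocount of 0.1 in place of 1. All 57 genes could be named. Values in every library were given for those that passed both thresholds with at least 1 CPM in a group, and for the highest of each role in control. Other pathway genes were named where they passed both thresholds, and those short of both after their values were seen.

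Replicate numbers came from the labels of each group. Deviations from the group means of same-numbered libraries correlated with r = 0.525, 0.428 and 0.599 between iHoxc9 and iHoxc10, so these libraries deviated together by number. The sources used here do not say whether the numbers mark shared batches. In the other comparisons the correlations were of either sign, except between iHoxc6 and control, where all were negative.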

Additional observations from a re-analysis of the deposited data

Results flagged for a closer look

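The difference between the iHoxc9 and iHoxc10 effects passed the test of the difference itself (edgeR, adjusted p under 0.01) for 9 of 55 genes, beside 2.6% of all genes higher and 2.4% lower in iHoxc9, with values on the log2 scale of iHoxc9 minus iHoxc10. It was 1.45 for Wnt5a, -2.22 for Wnt7b, 1.64 for Wnt11, 1.17 for Fzd10, 2.24 for Lgr5, -2.77 for Dact1 and 0.51 for Nkd1. The fitted values were 3.98 for Dkk2 and 5.79 for Rspo3, neither of which is a bound, since iHoxc10 held 3 counts or fewer of both in every library. The Nkd1 call was lost in 9 of 13 alternatives, the Rspo3 call in 5 and the Wnt11 call in 2. MN markers (256 to 275 CPM against 480 to 538 CPM) and the interneuron marker Sim1 (15.2 to 19.6 CPM against 3.44 to 7.63 CPM) differed between the same groups, and their part in these differences was not tested. Groups of 3 libraries are too small for a test of single outlying samples.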

How the results depend on the processing

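No direction was reversed for any gene that passed. Over all alternatives, 12 of 17 calls held in iHoxc9, 3 of 6 in iHoxc10, 0 of 2 in iHoxc8, 6 of 9 between iHoxc9 and iHoxc10 and 21 of 27 between control and Day 2. For iHoxc6, DESeq2's Wald test gave 2 calls in place of 0, and leaving out single libraries gave 0 to 4. For iHoxc8, DESeq2 gave 4 in place of 2, a fit of only the 2 groups gave 0, and leaving out single libraries gave 0 to 6. For iHoxc9, DESeq2 added Lrp6, higher, and Axin1 and Wnt3a, lower. A fit of only iHoxc9 and control added Fzd3 and Lrp6, higher, and Wnt3a, lower. For iHoxc10, leaving out single libraries gave 3 to 7 in place of 6, and 1 to 2 in place of 1 past both thresholds, where DESeq2 gave 2. The gene that DESeq2 and the fit without control replicate 3 added past both thresholds was Rspo3, which had no count in iHoxc10. A fit of only iHoxc10 and control ended the calls of Fzd9 (adjusted p = 0.0348) and Sfrp2 (0.0135). A fit of only iHoxc9 and control ended those of Wnt9a (0.0195), Fzd6 (0.0152), Nkd2 (0.0135) and Tcf7l2 (0.0283). Between iHoxc9 and iHoxc10, a fit of only these groups gave 15 in place of 9, and 28 with the replicate block, an alternative added after the data were seen. In the fit of all libraries, the replicate block changed the calls of Rspo3 and Nkd1 there (7 in place of 9). It also ended those of Tcf7l2 in iHoxc9 (adjusted p = 0.0143) and Fzd9 in iHoxc10 (adjusted p = 0.0109) against control, where the correlations by number were of either sign. It changed no other call of the 57 genes. Per kilobase, Fzd3 ranked 3 among receptors and Sfrp1 ranked 2 among inhibitors in control, in place of 1. Other scalings moved the median of all genes by no more than 0.038. The causes were not tested. With 3 counts worth up to 0.122 CPM, differences of genes such as Rspo3, Wnt1 and Wnt10b are limited by depth.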
